A study of Mus musculus with 40 samples.

Results

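Solute carriers are the membrane proteins that move amino acids, sugars, ions, metals, nucleosides, vitamins and metabolites into cells and between organelles. Their genes carry names that start with Slc followed by a family number. All probes for genes with such a symbol were taken from the arrays, except those of 7 genes that are not reported here. This gave 266 solute carrier genes among the 14126 named genes of 3 array designs. The late Tet arrays measured 232 of them, the early Tet arrays 263 and the media arrays 265, and 229 genes were on all 3 designs. Of the 266 genes, 262 were placed in 8 substrate classes. A further 3 are named after a carrier without being one (Slc9a3r1 and Slc4a1ap among them), and the family of Slc66a2 was not in the class list.

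The samples were mouse embryonic stem (ES) cells on 40 two-color arrays. ZHBTc4 ES cells (strain 129/Ola) have lost their own Pou5f1 alleles and live on a Pou5f1 transgene that tetracycline (Tet) switches off. All Tet arrays, including those at 0 hr, come from this single line. The late series has 3 arrays at 0 hr and 3 at each day of Tet from 24 to 120 hr, and the early series has 2 arrays at 0 hr and 2 each at 4 later times up to 24 hr. In the media experiment 4 lines were grown for 3 days in complete medium (LIF+), in the same medium without leukemia inhibitory factor (LIF-), or in complete medium with 1 µM retinoic acid (RA), with 1 array per line and medium. The lines were a single clone with an episomal Nanog transgene on a pPYFloxed vector and its parent MG1.19 (both strain 129Sv), and a single clone with Nanog integrated from a pEF6/IRES neo plasmid and its parent ES 129.3 (both 129SvEv-Tac). The labels call the last parent by another name than the study's methods do, and a protocol attached to the late arrays speaks of a different construct, while the titles and methods give ZHBTc4 with Tet. On each array the sample was labeled with Cy3 and a common reference RNA pooled from mouse cell lines with Cy5, and the dyes were never exchanged. Values are log2(Cy3/Cy5), so that a difference between groups is a log2 change, and values of different probes are not levels that can be compared. Nothing in the labels says whether replicate arrays of a time point came from separate cultures, so their p-values measure the spread between these arrays, which may be technical. Changes in bulk RNA do not tell fewer cells of a type from less RNA per cell.

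Amino acid carriers work as exchangers and symporters: Slc7 members form heavy-and-light-chain exchangers with Slc3a2 or act alone as cationic transporters, while Slc38 members and the Slc1 transporters Slc1a4 and Slc1a5 carry neutral amino acids in a sodium-dependent way and other Slc1 members take up glutamate. Metal carriers of the Slc39 family bring zinc into the cytosol and those of the Slc30 family take it out, and Slc40a1 (ferroportin) is the iron exporter. Slc25 members carry metabolites across the inner mitochondrial membrane, and Slc16 members carry lactate and other monocarboxylates. ES cells are known for a high demand for amino acids, and the placental trophoblast, the fate to which ES cells without Pou5f1 turn, is a tissue of transport.

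On the late arrays Pou5f1 itself read 1.91 to 2.40 at 0 hr and -0.30 to 0.12 on all later arrays. On the early arrays its probe read 3.97 on both 0 hr arrays, 3.93 to 4.26 at 3 hr, 3.37 to 3.80 at 6 hr, 3.80 to 3.86 at 12 hr and 3.38 to 3.46 at 24 hr, with changes of 0.12, -0.39 and -0.14 that were not called and, at 24 hr, a change of -0.55 that was under the 1.5-fold asked for here (limma, adjusted p = 0.0283). The study reports a strong drop of Pou5f1 RNA in this line within hours of Tet, followed by its protein. Those measurements came from real-time PCR with primers specific to the transgene and from a Western blot. Why the early array probe showed so small a change was not tested. Markers moved with the treatments. At 120 hr 7 of 8 trophoblast markers were higher and 6 of 8 ES cell markers lower. On RA 7 of 9 trophoblast and 3 of 5 primitive endoderm markers were higher and 5 of 8 ES cell markers lower. The methods describe removal of feeder cells by passages on gelatin before Tet for the early series. They take the late RNA from an earlier experiment, whose culture they do not describe. Of 4 fibroblast markers Postn rose by 4.12 by 120 hr and the other 3 lay between -0.27 and 0.17, while Col1a1 (0.98) and Col1a2 (0.61) rose on RA. What these markers contribute to the carrier changes was not tested. The median Cy3 signal of an array was 595 to 672 in the early series, 596 to 776 in the late series and 531 to 662 in the media experiment. Of the 232 carriers on the late arrays 158 were brighter than 95% of the negative-control probes (a level called here the negative-control limit) on all 18 arrays and 21 on none, against 249 of 263 on all early arrays and 253 of 265 on all media arrays. No carrier probe was saturated.

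A gene was called changed where limma gave an adjusted p of at most 0.05, adjusted over all probes and genes tested, and the change was at least 1.5-fold. Over all comparisons of a time or medium with its control, 102 carriers were called at least once and 164 never, that is 38.3% called, beside 38.6% of the 14126 named genes. The late arrays called 37 carriers after 1 day of Tet (24 hr), then 34 (48 hr), 47 (72 hr), 60 (96 hr) and 70 (120 hr). The shares called among all rows tested were 7.57%, 10.3%, 14.3%, 17.8% and 20.6% at the same times, against 15.9%, 14.7%, 20.3%, 25.9% and 30.2% of the carriers. Many of these rows are unnamed probes, and among named genes alone 11.0%, 15.0%, 20.8%, 25.4% and 29.3% were called, so that from 48 hr on the share of carriers called was close to that of named genes in general. These times share the 3 arrays at 0 hr. At 24 hr 18 carriers were higher and 19 lower, where 6.08% of the named genes were higher and 4.87% lower. At 120 hr 48 carriers were higher and 22 lower (the background at 120 hr was 12.1% higher and 8.53% lower over all rows, and 16.8% higher and 12.5% lower over the named genes). In the authors' normalized table the split at 120 hr was 56 higher and 14 lower. The median change of all 232 carriers at 120 hr was 0.03, beside 0.00 over all rows tested.

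**Figure D1:**
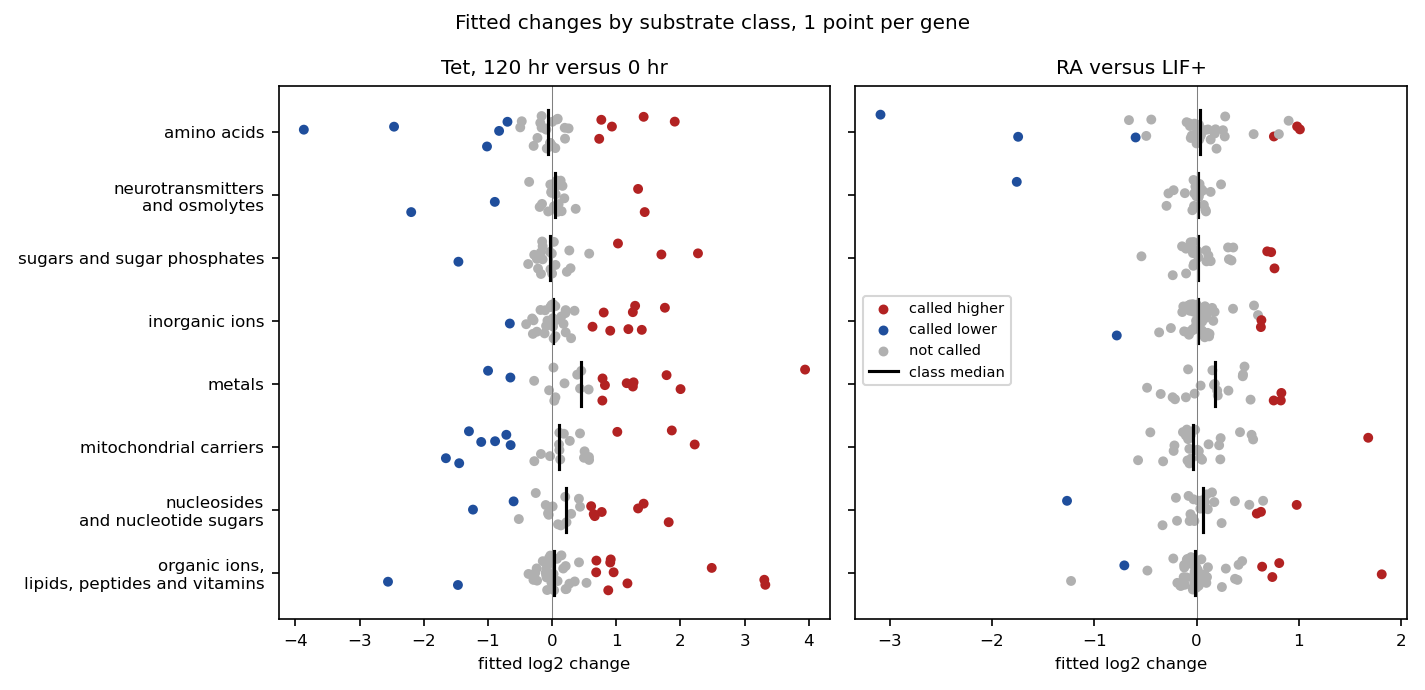
Fitted log2 change of every solute carrier gene by substrate class, at 120 hr of Tet against 0 hr on the late arrays and on RA against LIF+ on the media arrays. Each point is a gene, colored where called, and each bar is the class median. At 120 hr 9 of the 21 metal carriers are called above 0, while the falls of amino acid carriers are led by Slc7a3 in both panels.

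The plot of changes by class sets out how the called carriers fell among the classes. At 120 hr 9 of 21 metal carriers were higher and 2 lower (class median 0.46), and 7 of 22 nucleoside and nucleotide sugar carriers were higher and 2 lower. Organic ion, lipid, peptide and vitamin carriers had 10 higher and 2 lower of 45, and inorganic ion carriers 8 higher and 1 lower of 40. Amino acid carriers had 5 higher and 5 lower of 30, and 5 higher and 3 lower of 28 in the values normalized by the authors. Mitochondrial carriers had 7 lower and 3 higher of 24, with a class median of 0.11, and in the values normalized by the authors 3 lower and 5 higher of 23. Without the third array of 0 hr 7 of them were lower and 6 higher. Sugar carriers had 3 higher and 1 lower of 23, and carriers of neurotransmitters and osmolytes 2 higher and 2 lower of 23. Classes were not tested against each other.

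Slc7a3, the cationic amino acid transporter CAT-3, which takes up arginine and lysine, had the largest fall of all carriers on Tet and on RA. On the late arrays it read 3.05, 2.89 and 3.02 at 0 hr, and -0.73, -0.73 and -0.83 at 24 hr. From 48 to 120 hr the 12 arrays lay between -1.01 and -0.85, so the fall was nearly whole at 24 hr and the groups do not overlap. The change was -3.75 (SE 0.05, n = 3 against 3) at 24 hr and -3.87 (SE 0.05) at 120 hr, a 14.6-fold fall, with limma adjusted p of 4.65e-17 and 5.50e-18.

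The early arrays show when Slc7a3 left its starting level. Its brightest probe started at 2.77 and 2.85, read 2.68 and 2.72 after 3 hr, 2.26 and 2.23 after 6 hr and 0.48 and 0.54 after 12 hr, and ended at -0.49 and -0.02. Both arrays of each time from 3 hr on were below both arrays of 0 hr. The change was -0.57 at 6 hr (adjusted p = 0.0582), -2.30 at 12 hr (adjusted p = 0.000209) and -3.07 (SE 0.13) at 24 hr (adjusted p = 8.70e-06), all by limma with n = 2 against 2. At 12 hr this was a 4.94-fold fall and the largest change of any carrier at that time. The probe of Slc7a3 that both Tet designs share gave a 24 hr change of -2.29 in the early series against -3.75 in the late one, a difference of 1.46 (SE 0.12, limma adjusted p = 5.02e-05).

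In the media experiment Slc7a3 read 2.76, 3.51, 3.25 and 3.58 in LIF+ in the episomal clone, the integrated clone, MG1.19 and ES 129.3. On RA the same lines read 0.07, 0.66, 0.02 and -0.02, far below any LIF+ array. Without LIF they read 3.69, 3.85, 3.64 and 3.82, each above its own LIF+ array. The change was -3.09 on RA (SE 0.14, limma adjusted p = 4.48e-05, lower in 4 of 4 lines), and a second probe gave -2.66. The LIF- change of 0.48 missed the threshold (adjusted p = 0.162, higher in 4 of 4 lines). Of the other CAT type transporters, Slc7a1 (CAT-1) changed by 0.00 at 120 hr and -0.06 on RA, and Slc7a2 (CAT-2) by -0.03 and 0.04, none of them called.

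**Figure D2:**
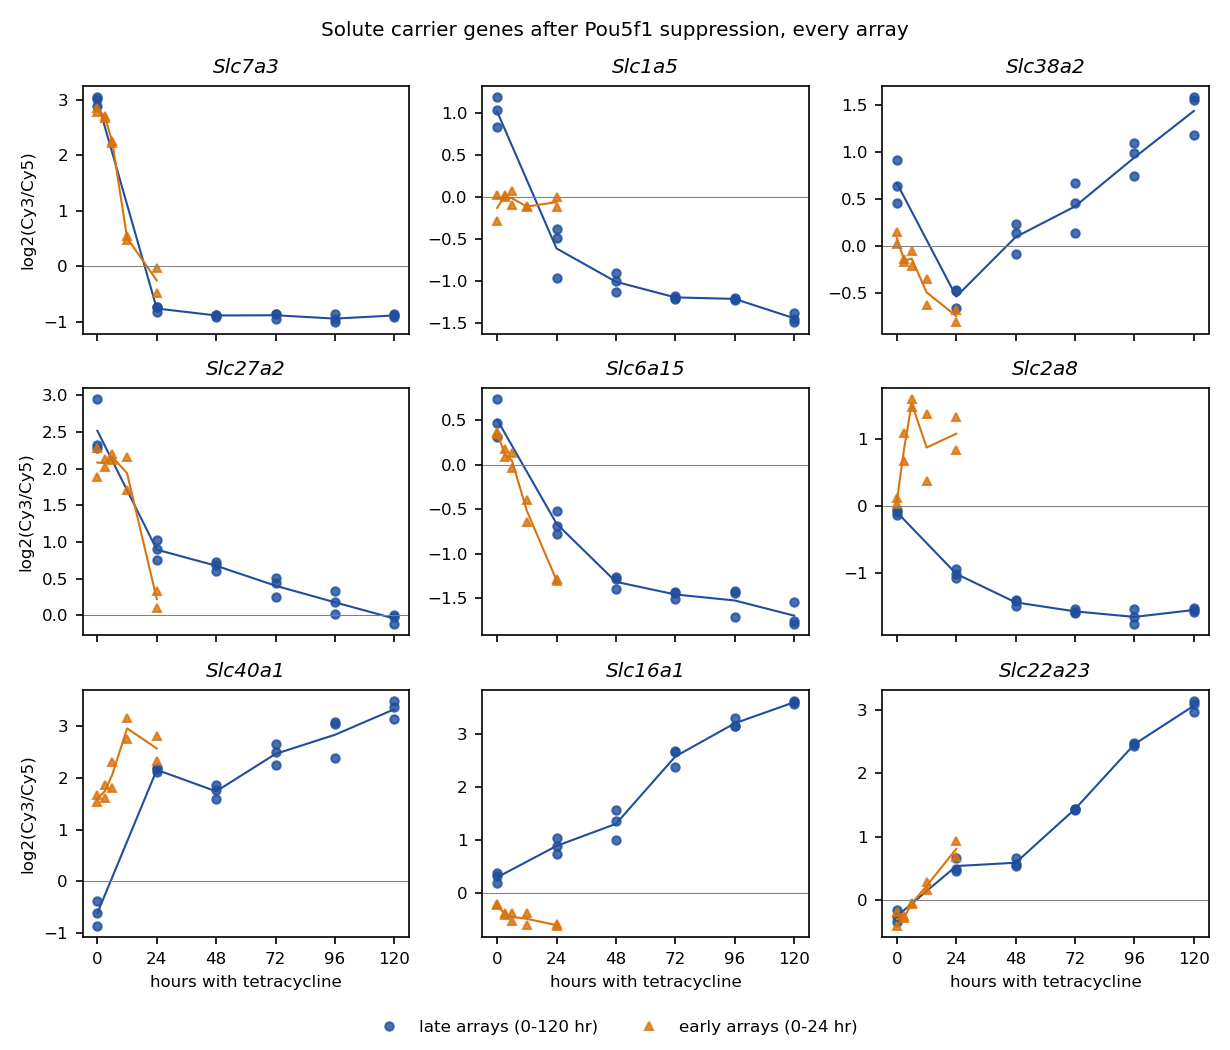
Values of 9 solute carrier genes, log2(Cy3/Cy5), against hours of Tet. Circles are single late arrays, triangles single early arrays, and lines join the group means. Slc7a3 drops between 6 and 24 hr and stays low, Slc16a1 and Slc22a23 climb up to 120 hr, Slc38a2 dips at 24 hr and recovers, and the early and late arrays part for Slc1a5 and Slc2a8.

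Other amino acid carriers fell within 24 hr on the late arrays. Slc1a5 (ASCT2), a neutral amino acid exchanger that takes up glutamine, started at 1.193, 0.84 and 1.04, read -0.38, -0.49 and -0.96 after 24 hr and ended at -1.45, -1.38 and -1.49 after 120 hr. Its fall grew from -1.63 (adjusted p = 1.22e-08) to -2.46 (adjusted p = 9.62e-12, limma), with no overlap between the groups. The heavy chain Slc3a2 and its partner Slc7a5 (LAT1), which together exchange large neutral amino acids, changed by -1.26 and -1.12 at 24 hr. They had come back to -0.70 (still called) and -0.50 (not called) by 120 hr. Slc1a4 (ASCT1) fell by 0.90 at 24 hr and the glycine transporter Slc6a9 by 1.27.

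Slc38a2 (SNAT2), a sodium-coupled neutral amino acid transporter, first fell and then rose. From 0.63, 0.45 and 0.91 before Tet it went to -0.48, -0.47 and -0.66 after 24 hr and to 1.17, 1.58 and 1.54 after 120 hr. The change was -1.20 (adjusted p = 6.94e-06) at 24 hr and 0.77 (adjusted p = 0.0003, limma) at 120 hr, and all 3 arrays were on the other side of the 0 hr arrays at these times. Slc11a2 (DMT1, which takes up iron) went from -0.68 to 0.82, Slc35f2 from -0.81 to 1.43 and the thiamine transporter Slc19a2 from -0.80 to 0.91, with a call at both ends. Rises without an early dip came from Slc38a1 (SNAT1), which changed by 1.91 at 120 hr, Slc1a1 (the glutamate transporter EAAC1) by 1.43, Slc7a8 (LAT2) by 0.93 and Slc43a2 by 0.73.

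Genes that answer amino acid shortage through Atf4 were lower on the same late arrays. All 8 of those measured, among them Atf4 (-1.82), Trib3 (-2.60) and Phgdh (-1.93), were called lower at 24 hr, with a median of -1.82. Of the 8, 7 were lower at 120 hr (median -1.67). On the early arrays 0 of 9 were called at 24 hr in either direction, and 1 of 9, Trib3 with -0.82, was lower on RA. Without LIF 1 of 9 was lower. The list holds genes known to share this control with Slc3a2, Slc7a5 and Slc38a2, and its part in their change was not tested. Slc7a11, the cystine carrier of the same response, was under the negative-control limit on all 18 late arrays, so a fall of it could not be seen there.

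Among carriers of neurotransmitters and osmolytes Slc6a15, which brings branched-chain amino acids and proline into neurons, fell and stayed low. It read 0.31, 0.47 and 0.74 at 0 hr and -1.54, -1.79 and -1.75 at 120 hr, when its signal was under the negative-control limit on all 3 arrays. The change was -2.20 on the late arrays (adjusted p = 1.17e-11) and -1.65 at 24 hr on the early ones (adjusted p = 3.88e-05), where it was already -0.87 at 12 hr. By contrast the creatine transporter Slc6a8 rose by 1.44 and the taurine transporter Slc6a6 by 1.34 at 120 hr (all limma).

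Of the 11 metal carriers called at 120 hr 9 were higher. Slc40a1, the iron exporter, rose from -0.62, -0.86 and -0.37 to 2.19, 2.16 and 2.11 within 24 hr and to 3.13, 3.36 and 3.49 by 120 hr. The change at 120 hr was 3.94 (SE 0.16, limma adjusted p = 2.32e-12), and since its signal was under the negative-control limit on all 3 arrays at 0 hr, the rise may be larger than measured. On the early arrays it started at 1.53 and 1.67, read 2.75 and 3.16 after 12 hr and 2.32 and 2.81 after 24 hr, a change of 1.36 at 12 hr and 0.97 at 24 hr.

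Single zinc carriers rose at different times. The exporter Slc30a1 rose at once, from 0.77, 0.82 and 1.11 to 2.30, 2.36 and 2.05 at 24 hr, and stayed near there (1.27 at 120 hr). The importer Slc39a6 did not move at 24 hr (0.06) and then climbed from -1.53, -1.48 and -1.38 at 0 hr to 0.39, 0.59 and 0.64 at 120 hr, a change of 2.00. Slc30a4, which loads zinc into vesicles, rose by 1.78 and Slc39a10 by 1.16. Slc39a14 was lower at 24 hr on the late arrays (-1.07) and at 12 and 24 hr on the early ones (-1.03 and -1.32), and was 0.57 above its start at 120 hr without being called. The copper transporters Slc31a1 (0.79) and Slc31a2 (1.26) were higher at 120 hr, and the falls of this class were Slc11a1 (-0.998) and Slc39a4 (-0.65).

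Monocarboxylate, organic ion, lipid and vitamin carriers gave the tallest late rises after Slc40a1. Slc16a1 (MCT1), which carries lactate and pyruvate, read 0.38, 0.19 and 0.32 before Tet, 0.90, 1.03 and 0.74 after 24 hr and 3.57, 3.61 and 3.63 after 120 hr. Slc22a23, an orphan of the organic ion family, read -0.16, -0.34 and -0.27 at 0 hr and 3.15, 2.97 and 3.09 at 120 hr. Their changes of 3.31 (adjusted p = 2.36e-13) and 3.32 (adjusted p = 1.65e-16) are 9.91-fold and 10.0-fold rises (limma), and from 72 hr on the arrays of each time lay above all arrays of the time before in both genes. The riboflavin transporter Slc52a3 waited until 72 hr (0.97) and reached 2.49, and the vitamin transporter Slc5a6, which carries biotin and pantothenate and is counted here with the sugar family Slc5, reached 2.27.

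Slc27a2, a very long chain acyl-CoA synthetase and fatty acid transport protein, was the main fall among the lipid carriers. Its 0 hr arrays read 2.32, 2.28 and 2.95, those at 24 hr 0.91, 1.02 and 0.76 and those at 120 hr -0.12, -0.02 and 0.01, a change of -2.56 (adjusted p = 5.87e-11) that ended under the negative-control limit. On the early arrays it held through 12 hr (-0.15) and fell to 0.34 and 0.11 at 24 hr from 1.89 and 2.28, a change of -1.86 (adjusted p = 0.000232, limma). The proton-coupled exporter of organic cations Slc47a1 (MATE1) fell by 1.47 by 120 hr and by 1.60 on the early arrays, but its late probe was above the negative controls on only 7 of 18 arrays, so that its late fall is bounded by the background.

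Promoter sequences of 4 of these genes are shown because they carry the largest rises and falls at 120 hr among the carriers for which the RefSeq table gave a single entry, 2 that rose (Slc16a1 and Slc22a23) and 2 that fell (Slc27a2 and Slc25a36, a mitochondrial nucleotide carrier). Each runs 5′ to 3′ from 250 bases before to 50 bases after the annotated start on build GRCm38.p6, and capitals mark the CCAAT box (CCAAT) and the GC box (GGGCGG) on either strand, where matches can overlap. The table held 203 of the 266 carriers, and Slc7a3 was not among them.
Slc16a1, chr3:104638414-104638713, plus strand: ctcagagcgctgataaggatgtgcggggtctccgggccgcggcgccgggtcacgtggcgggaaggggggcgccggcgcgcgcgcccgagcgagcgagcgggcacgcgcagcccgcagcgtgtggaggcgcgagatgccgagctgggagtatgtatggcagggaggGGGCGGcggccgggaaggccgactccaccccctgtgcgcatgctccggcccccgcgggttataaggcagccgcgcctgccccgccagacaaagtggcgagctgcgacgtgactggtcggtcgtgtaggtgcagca
Slc22a23, chr13:34345169-34345468, minus strand: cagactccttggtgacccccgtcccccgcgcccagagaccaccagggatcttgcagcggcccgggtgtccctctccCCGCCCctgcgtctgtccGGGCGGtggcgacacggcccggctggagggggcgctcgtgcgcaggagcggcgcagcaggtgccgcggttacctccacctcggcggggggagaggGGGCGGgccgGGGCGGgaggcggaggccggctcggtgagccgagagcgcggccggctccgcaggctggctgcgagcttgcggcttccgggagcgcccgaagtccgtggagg
Slc27a2, chr2:126552774-126553073, plus strand: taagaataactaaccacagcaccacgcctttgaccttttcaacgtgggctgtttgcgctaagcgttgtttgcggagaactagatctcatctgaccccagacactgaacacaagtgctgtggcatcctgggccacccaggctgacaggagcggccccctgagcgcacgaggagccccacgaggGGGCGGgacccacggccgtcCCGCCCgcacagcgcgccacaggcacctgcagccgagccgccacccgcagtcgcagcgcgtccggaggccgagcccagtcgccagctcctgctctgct
Slc25a36, chr9:97110992-97111291, minus strand: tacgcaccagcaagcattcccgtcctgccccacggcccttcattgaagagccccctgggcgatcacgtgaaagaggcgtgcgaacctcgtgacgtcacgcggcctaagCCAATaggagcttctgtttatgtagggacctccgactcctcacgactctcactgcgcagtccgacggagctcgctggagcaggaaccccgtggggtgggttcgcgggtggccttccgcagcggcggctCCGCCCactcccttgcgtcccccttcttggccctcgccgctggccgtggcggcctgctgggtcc

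Among these promoters those of Slc16a1, Slc22a23 and Slc27a2 hold 1, 4 and 2 GC boxes and no CCAAT box, with 73.7%, 77.3% and 65.3% G and C. The promoter of Slc25a36 holds 1 CCAAT box and 1 GC box, with 66.7% G and C. Of all 32817 RefSeq promoters given, 37.4% hold a CCAAT box and 35.6% a GC box. The octamer ATGCAAAT, to which POU proteins bind, stands in 1.74% of all promoters and in none of these 4 windows, and the amino acid response core TGATGNAA stands in 3.97% and in none of the 4. A match is a run of letters and not evidence of binding, and its absence says nothing about sites elsewhere.

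Slc25 carriers of the mitochondrial inner membrane went both ways. Slc25a24, the carrier of ATP-Mg and phosphate, read -2.20, -2.40 and -2.23 at 0 hr and -0.23, 0.08 and -0.01 at 120 hr, a rise of 2.22 from a level under the negative-control limit on all 3 arrays at 0 hr, and the dicarboxylate carrier Slc25a10 went from -0.11, -0.21 and -0.21 to 1.63, 1.74 and 1.70, a rise of 1.87. Each group of 3 was apart from its 0 hr arrays. Slc25a36, which carries pyrimidine nucleotides, fell at 24 hr from 1.11, 1.13 and 1.44 to -0.18, -0.28 and -0.33 and stayed there (-1.66 at 120 hr). The carnitine-acylcarnitine carrier Slc25a20 was higher at 24 hr (0.75, where 1 of 3 arrays had no value) and then fell to 0.96, 1.35 and 1.21 from 2.58, 2.51 and 2.32 at 0 hr, a change of -1.30. The ADP/ATP carrier Slc25a5 fell by 1.45 and Slc25a39, which carries glutathione, by 1.10.

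Nucleoside, sugar and ion carriers completed the late picture. The equilibrative nucleoside transporter Slc29a1 (ENT1) read 1.35, 1.40 and 1.42 at 0 hr and 0.10, 0.17 and 0.20 at 120 hr, a fall of -1.23, whereas the concentrative transporter Slc28a3 rose by 1.34. Slc35f5, a Slc35 member of uncertain substrate, rose by 1.82. Slc2a8 (GLUT8) read -0.13, -0.09 and -0.06 at 0 hr and -1.55, -1.53 and -1.59 at 120 hr, a change of -1.46, while Slc45a3 (1.70) and the glucose-6-phosphate carrier Slc37a4 (1.03) were higher. Among ion carriers the chloride-bicarbonate exchanger Slc4a2 rose by 1.76 from under the negative-control limit, the sodium-potassium-chloride cotransporter Slc12a2 (NKCC1) by 1.29 and the potassium-chloride cotransporter Slc12a4 (KCC1) by 1.26. The 1 fall called among 40 ion carriers at 120 hr was Slc4a8 (-0.66).

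**Figure D3:**
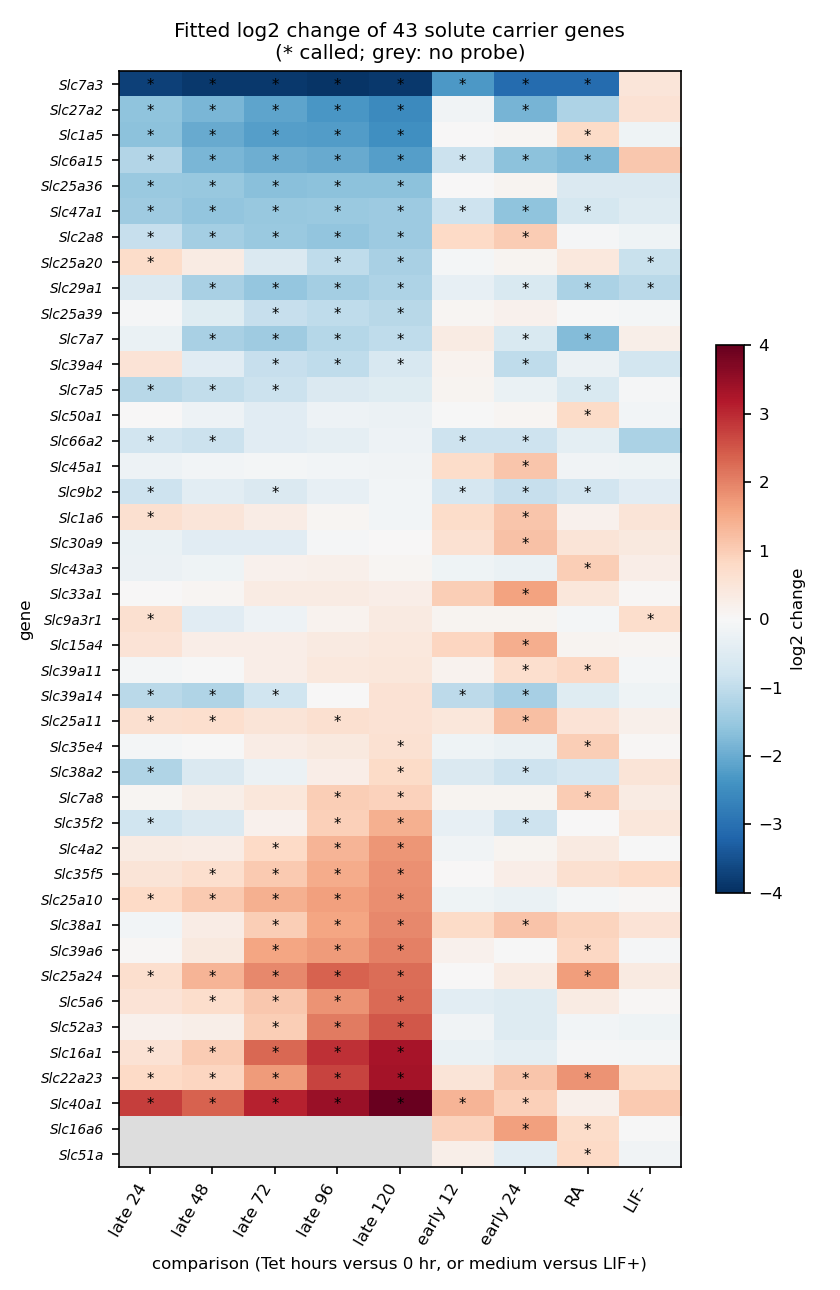
Fitted log2 change of 43 solute carrier genes (rows) in 9 comparisons (columns), red for higher and blue for lower, with a star where called and grey where the design has no probe. Slc7a3 is blue from 12 hr on and on RA, and many rises of the early arrays at 24 hr have no counterpart on the late arrays.

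The early arrays gave 0 called carriers after 3 hr, 5 after 6 hr, 9 after 12 hr and 38 after 24 hr. Among all rows tested 0.00256%, 2.17%, 0.603% and 8.85% were called at these times, and among the named genes 0.00719%, 2.95%, 1.29% and 13.4%. At 3 hr 13 of 263 carriers had an unadjusted p under 0.05 (limma), and 0 were called with the methods' error variance. The 5 at 6 hr were higher (Slc2a8 1.46, Slc12a4 1.34, Slc45a1 0.97, Slc35g1 0.87 and Slc39a3 0.61), and none of them was called after a correction for loss of the Cy5 dye, from the Cy3 channel alone or in the authors' normalized table. Without 1 array of 0 or 6 hr, 0 to 2 carriers were called at 6 hr. At 12 hr 7 of the 9 were lower, with Slc7a3, Slc39a14, Slc6a15 and Slc47a1 in front, and without 1 array the count ran from 1 to 20, which was 1 without either array of 0 hr, 20 without the first and 2 without the second array of 12 hr.

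At 24 hr on the early arrays falls and rises differed in how they held under other processing. With the error variance of the study's methods 0 of all rows were called, falls included. Of the 38 called carriers 23 were higher and 15 lower, against a background of 6.93% higher and 1.92% lower over all rows, and 9.21% higher and 4.17% lower over the named genes. In all 14.4% of the carriers and 13.4% of the named genes were called. With the correction for loss of Cy5 there were 5 higher and 11 lower, from Cy3 alone 6 and 18, and in the authors' table, which gave values for 213 of the 263 carriers and where the median of all rows also moved to -0.16, 1 and 26. Slc16a6 (1.63), Slc33a1 (1.61) and Slc15a4 (1.46), the top rises, came to 0.11, 0.35 and 0.27 with the correction and were not called. Slc22a23 went from -0.41 and -0.20 to 0.68 and 0.94 and kept its rise in all 3 (1.11 in the fit used here, 1.07, 1.23 and 1.12). Slc30a9, a zinc carrier, kept its call in 2 of the 3 (1.18, then 0.71, 0.69 and 0.55). The falls of Slc7a3, Slc27a2, Slc6a15, Slc47a1, Slc39a14, Slc39a4 and Slc38a2 were called in all 3, as were those of Slc9b2, Slc35f2 and Slc15a1. The fall of Slc38a2 rests on its brightest probe (-0.83), and the mean of all its probes changed by -0.14 and was not called. Without 1 of the 4 arrays at 0 and 24 hr the count was 22, 19, 51 and 21 (in the order of 0 hr first and second, 24 hr first and second array), with 13 to 15 falls in each and 7, 6, 36 and 6 rises.

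Both Tet designs hold 24 hr, and for 229 carriers an identical probe allows a test of the difference between them. It called 39 carriers (17%, 27 with a higher change on the early arrays and 12 with a lower one), where 14.4% of all 18868 rows and 17.4% of the named genes were called. With the Cy5 correction 22 were called (14 higher and 8 lower), from Cy3 alone 21 (6 and 15), and in the values normalized by the authors, where the median of all rows was -0.22 and 184 carriers were tested, 39 (6 and 33), of which 18 had the same call as here. Slc1a5 fell on the late arrays (-1.63) and was flat on the early ones (0.07), where it read 0.03 and -0.28 at 0 hr and -0.12 and 0.01 at 24 hr. Slc2a8 went down on the late (-0.92) and up on the early arrays (1.00), but the early value turned to -0.49 with the Cy5 correction, -0.52 from Cy3 alone and -0.72 in the authors' table. Slc39a4 (ZIP4), a zinc importer, went the other way, by 0.56 on the late and -1.01 on the early arrays. Loss of Cy5 also went with time in the early series. The mean log10 Cy5 signal of the genes used for the correction was 3.23 and 3.37 before Tet and 2.89 and 2.71 after 24 hr. The late series read 2.78 to 2.86 before Tet and 2.83 to 2.89 after 24 hr. Of the 39 differences, 19 kept the same call with the Cy5 correction. How much of the rest is due to the dye was not tested. Array design and cell culture differ between the series as well and cannot be told apart.

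**Figure D4:**
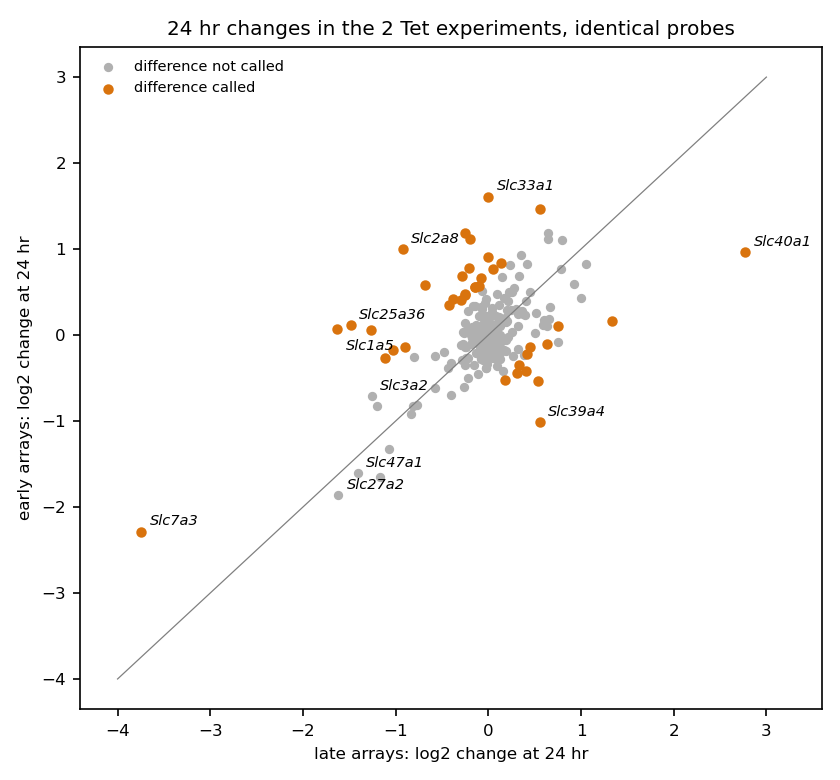
Log2 change at 24 hr of Tet on the late arrays (horizontal) and the early arrays (vertical) for solute carrier genes measured by an identical probe on both designs. Orange points are genes whose difference was called and the diagonal is equality. Slc7a3 lies at the lower left in both, and Slc1a5, Slc25a36 and Slc2a8 are far above the diagonal.

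Separate arrays allow the lists of called carriers to be laid side by side. Of 230 carriers measured at 24 hr on both Tet designs, 10 were lower on both (52.6% of the 19 late and 66.7% of the 15 early falls) and 5 higher on both (27.8% of 18 and 23.8% of 21). For all named genes the same shares were 29.4% and 38.2% for falls and 26.2% and 16.3% for rises. Opposite calls were made for 2 of the 230 carriers and for 46 of 11265 named genes.

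RA was compared with LIF+ within each line. It called 26 of 265 (9.81%), 19 higher and 7 lower, where 5.85% of all rows were called (4.65% higher and 1.2% lower) and 11.1% of the named genes (8.46% higher and 2.59% lower). By class 3 of 34 amino acid carriers were higher and 3 lower (Slc43a3, which carries purine bases, is counted here with its family Slc43), 3 of 21 metal carriers higher, 3 of 25 nucleoside carriers higher and 1 lower, 3 of 24 sugar carriers higher, 4 of 54 organic ion carriers higher and 1 lower, and 2 of 50 inorganic ion carriers higher and 1 lower. Of 28 mitochondrial carriers 1 was higher, and of 25 in the neurotransmitter class 1 was lower. Without MG1.19 15 carriers were called, and without another line 23 to 28. With the error variance of the study's methods 12 were called (9 higher and 3 lower), and without the line in the fit 19.

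Besides Slc7a3, 6 carriers of several substrate classes fell on RA. Slc7a7 (y+LAT1), which exports cationic amino acids, read 2.33, 2.17, 2.88 and 2.74 in LIF+ and 0.80, 0.60, 0.72 and 1.03 on RA, in the order episomal clone, integrated clone, MG1.19, ES 129.3. The change was -1.74 (SE 0.11, limma adjusted p = 0.000108), and no RA array reached a LIF+ array. Slc6a15 read -0.62, 0.78, 0.69 and 1.92 in LIF+ and -0.73, -0.86, -1.35 and -1.32 on RA, so that the episomal clone, low from the start, moved little while the other 3 lines fell. Its change was -1.76 (SE 0.40, limma adjusted p = 0.0208), and the call held in 9 of 13 alternative settings (-2.31 to -1.26). Slc29a1 fell by 1.27, Slc9b2, a sodium-proton antiporter, by 0.78, Slc47a1 by 0.71 and Slc7a5 by 0.60. Among the falls on RA, only that of Slc47a1 did not have the same sign in 4 of 4 lines.

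Rises on RA were led by Slc22a23 and Slc25a24. Slc22a23 read -0.82, -0.82, -0.16 and 0.50 in LIF+ and 1.85, 0.92, 1.75 and 1.42 on RA, a change of 1.81 (SE 0.25, adjusted p = 0.00209), higher in 4 of 4 lines. Slc25a24 read -2.47, -2.56, -2.22 and -1.22 in LIF+ and -0.23, -1.38, -0.37 and 0.23 on RA, a change of 1.68 (SE 0.17, adjusted p = 0.000504, limma), again in 4 of 4 lines, with the integrated clone the lowest on RA. Smaller rises were those of Slc7a8 (1.01), the purine base transporter Slc43a3 (0.98), Slc35e4 (0.98), Slc39a11 (0.83), Slc39a6 (0.82), the bile acid transporter subunit Slc51a (0.81), the sugar transporter Slc50a1 (0.76) and Slc30a4 (0.75). The rise of Slc51a kept its call in 8 of 13 alternative settings, with changes of 0.48 to 0.96. Slc1a5 rose on RA by 0.76, from -1.57, -1.13, -1.23 and -1.35 to -0.61, -0.68, -0.38 and -0.59, with no overlap, while on the late Tet arrays it fell. Slc16a1, so high at 120 hr of Tet, changed by -0.05 on RA, and Slc27a2 by -1.23 with wide spread among the lines (SE 0.46, adjusted p = 0.128).

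**Figure D5:**
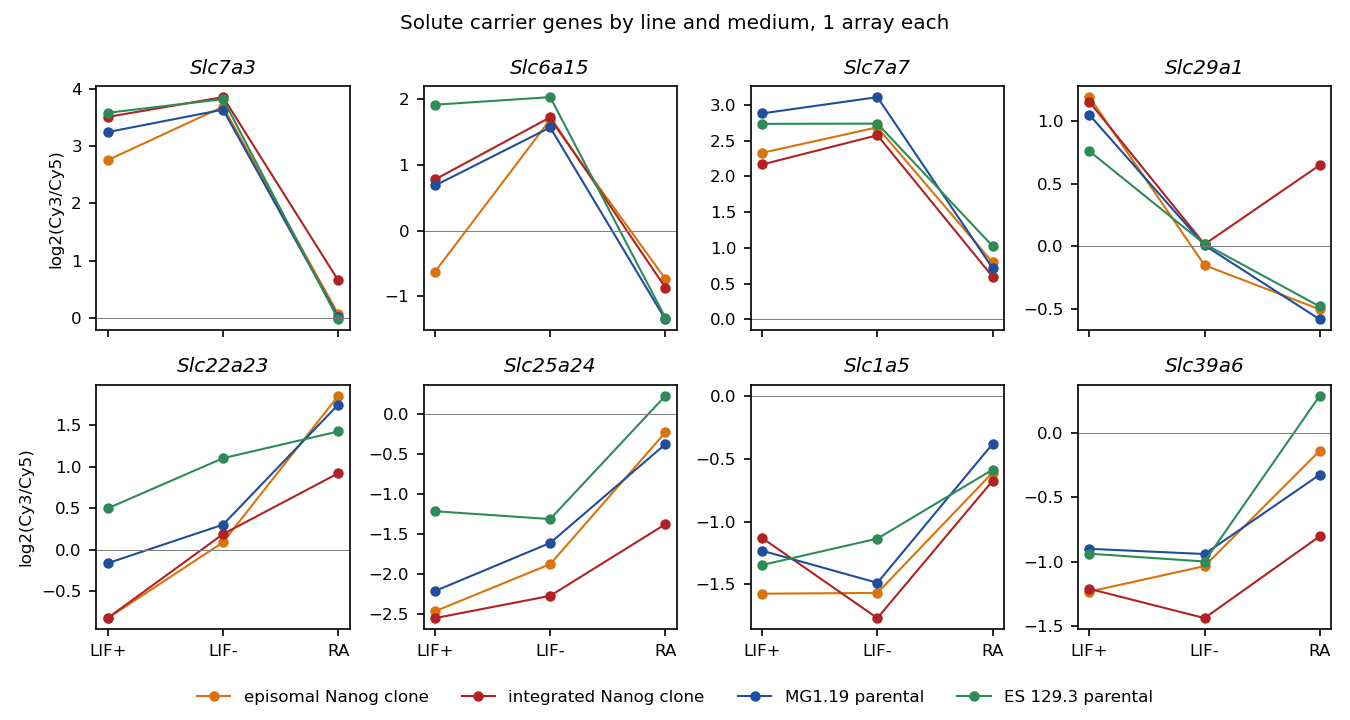
Values of 8 solute carrier genes, log2(Cy3/Cy5), in LIF+, LIF- and RA for the 4 lines, with 1 array per line and medium. Slc7a3 and Slc7a7 are low on RA in all 4 lines, Slc22a23 and Slc25a24 are high on RA, and Slc29a1 is low both without LIF and on RA.

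Without LIF 3 carriers (1.13%) were called, where 0.937% of all rows and 2.02% of the named genes were. Slc29a1 read 1.1903, 1.15, 1.05 and 0.76 in LIF+ and -0.15, 0.02, 0.01 and 0.02 in LIF-, a change of -1.06 (adjusted p = 0.0451). Slc25a20 fell by 0.89 (adjusted p = 0.0403) and Slc9a3r1, a scaffold protein that binds the exchanger Slc9a3, rose by 0.71 (adjusted p = 0.0308, limma). Each moved the same way in 4 of 4 lines. The calls are near the threshold, as 0 to 6 carriers were called without 1 line: 0 without the episomal clone or MG1.19, 1 without the integrated clone and 6 without ES 129.3. The iron exporter Slc40a1 gave 1.05 (adjusted p = 0.0711) and Slc6a15 1.06 (adjusted p = 0.262) in the same comparison, both above LIF+ in 4 of 4 lines and not called. LIF- and RA share the LIF+ arrays.

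RA responses were also compared between lines. Between the 129SvEv-Tac and the 129Sv lines 0 of 265 carriers differed by the call rule (0% of all rows), and between the Nanog clones and their parents again 0 (0%). At an unadjusted p under 0.05 there were 27 and 24 carriers (limma), and the lowest adjusted p was 0.292 and 0.716. The RA change of Slc7a3 was -2.77 in the clones and -3.41 in the parents, a difference of 0.65 (SE 0.21, adjusted p = 0.716). Strain goes together with the day of image extraction and cannot be told apart from it.

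The late Tet and the RA lists come from separate arrays and separate lines. Of 231 carriers measured in both, 10 were higher in both (20.8% of 48 on Tet and 62.5% of 16 on RA) and 5 lower in both (22.7% of 22 and 71.4% of 7). For all named genes the shares were 31.1% and 56.3% for rises and 15.1% and 73.1% for falls. The 5 that fell in both were Slc7a3, Slc6a15, Slc7a7, Slc29a1 and Slc47a1, and among those that rose in both were Slc22a23, Slc25a24, Slc7a8, Slc35e4, Slc39a6, Slc30a4, Slc37a4, Slc45a3 and the riboflavin transporter Slc52a2. Slc1a5 was the 1 carrier of 231 that went opposite ways, as did 72 of 11354 named genes. At 24 hr on the early arrays 6 carriers were lower as well as on RA (40% of 15 and 85.7% of 7), and 5 higher (21.7% of 23 and 26.3% of 19). For all named genes these shares were 28.8% and 43.5% for falls and 26.8% and 29% for rises.

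The 164 carriers never called were spread over all classes. Called at least once, where 38.6% of all named genes were, were 16 of 21 metal carriers, 15 of 34 amino acid carriers, 12 of 28 mitochondrial carriers, 13 of 26 nucleoside carriers, 7 of 24 sugar carriers, 18 of 54 organic ion carriers, 13 of 50 inorganic ion carriers and 5 of 25 carriers of neurotransmitters and osmolytes. The 21 carriers that were under the negative-control limit on every late array could show no fall there. Where a carrier had more than 1 probe, 63 on the early and 65 on the media arrays, no 2 probes of a gene were called in opposite directions, but at 24 hr 11 and on RA 5 of these genes had probes called and probes not called. On the late arrays 2 carriers, Slc25a5 and Slc22a30, had more than 1 probe, and at 72 hr 1 of them had a probe called and a probe not called. The standard error of a carrier's change was 0.11 on the early, 0.08 on the late and 0.06 on the media arrays at the median.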

How the data were processed

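For every array the authors deposited the scanner output of Agilent Feature Extraction A.7.5.1, with mean spot signals, median local backgrounds and processed signals in intensity units. The authors also deposited their own normalized values of each array in log10 units. For the media, a single column deposited by the authors is treated as a score because a code for missing cells, set to missing here, stands among its normalized log10 values. These were matched to spots by feature number, checked against the Cy3 signal (r 0.90 to 0.97 per array), and had column medians of 2.91 to 2.99. Their centering is not given in the sources used here, so they served as an alternative.

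From the deposited mean signals the background was corrected here (normexp, offset 50), loess was run within each array to balance Cy3 against Cy5, spots marked as outliers were set to missing, saturated spots were kept, and values are log2(Cy3/Cy5). The software marked nearly all probes as well above background, so the 95th percentile of the negative controls (401 to 426 on the early, 506 to 653 on the late and 399 to 433 on the media arrays, in Cy3 intensity) was used as the limit of low signal, and a fall toward it appears smaller than it is. The number of arrays limits the precision.

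Probes were named through the accession in the gene name field with the mouse RefSeq gene table, through an identical probe of another design, or through the study's own tables. Each named gene is represented by its brightest probe and unnamed probes count singly, giving 39003 early, 20727 late and 37680 media rows, of which those with values in both groups were tested. Models were fitted with limma 3.58.1 in R 4.3.3, with all times of a series in 1 fit and with the line as a block for the media, since each line was grown in all 3 media. Tests were two-sided and p-values were adjusted by Benjamini and Hochberg over all rows. The difference between early and late arrays at 24 hr used identical probes in 1 fit. The scripts were tested on simulated data. The solute carrier genes, the class and marker lists and the tests were chosen with earlier results of these data known. The genes named are Slc7a3, then the called carriers with the 10 largest rises and 10 largest falls at 120 hr, at 24 hr of the early arrays, on RA and without LIF whose arrays all lie on 1 side of the 0 hr arrays (media: same sign in 4 of 4 lines), and the carrier with the largest change of each substrate class at 120 hr and on RA. Other genes named as examples were chosen after their values were seen. Alternatives were the processed signals, the authors' table, a correction for loss of Cy5, Cy3 alone, scaling between arrays, leaving out dim probes, the mean of all probes, the error variance of the study's methods, a replicate block, and leaving out single arrays or lines. Headers hold a day of image extraction, the same for all Tet arrays of a series. The promoter table is of build GRCm38.p6, and no coordinates of the arrays were used.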

Additional observations from a re-analysis of the deposited data

Results flagged for a closer look

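In the media experiment 54 groups of 4 lines were checked for a line far from the other 3, where chance marks about 1 in 20. Slc29a1 stood apart in 2 of them. Without LIF the episomal Nanog clone read -0.15 against 0.01 to 0.02 in the other lines, and on RA the integrated Nanog clone read 0.65 against -0.58 to -0.48. The integrated clone also stood apart on RA for Slc7a3 (0.66 against -0.02 to 0.07) and for Slc35e4 (-1.06 against -0.06 to -0.04), so that 3 of the 4 cases are this clone on RA, each lying toward its own LIF+ value. These 3 cases come from the same single array, and 4 cases in 54 groups are close to the rate given for chance.

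The 24 hr change differed between the early and late arrays for 15 of the named carriers. The early change was the higher for Slc2a8 (by 1.92), Slc1a5 (1.70), Slc33a1 (1.61), Slc25a36 (1.60), Slc7a3 (1.46), Slc30a9 (1.44), Slc45a1 (1.31), Slc15a4 (0.91), Slc7a5 (0.86) and Slc39a11 (0.74). It was the lower for Slc40a1 (-1.80), Slc39a4 (-1.57), Slc5a6 (-1.07), Slc52a3 (-0.70) and Slc25a20 (-0.64). The limma adjusted p lay between 1.90e-05 for Slc39a4 and 0.0276 for Slc39a11. With the Cy5 correction, from Cy3 alone and in the values normalized by the authors, the differences of Slc1a5, Slc25a36, Slc39a4, Slc40a1 and Slc5a6 were called each time, and that of Slc7a3 in both settings that gave it a value. The other 9 lost their call in at least 1 of these settings. For Slc2a8 the difference came to 0.43, 0.31 and -0.01 and for Slc33a1 to 0.36, 0.52 and 0.16, and that of Slc15a4 turned to -0.28, -0.57 and -0.62, none of them called. The sign also turned from Cy3 alone for Slc45a1 (-0.45) and Slc52a3 (0.26). What sets the series apart was not tested.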

How the results depend on the processing

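The total number of carriers called at each late time stayed within 1.5 times under all alternatives run, though counts by direction did not (higher at 48 hr 22 from Cy3 alone against 14, lower at 120 hr 14 in the authors' table against 22): leaving out single arrays gave 34 to 40 at 24 hr, 33 to 37 at 48 hr, 46 to 50 at 72 hr, 56 to 62 at 96 hr and 69 to 72 at 120 hr. In the authors' table the split of higher and lower calls moved from 14 and 20 to 20 and 16 at 48 hr, from 25 and 22 to 29 and 14 at 72 hr, and from 39 and 21 to 46 and 14 at 96 hr. On the early arrays the 5 calls at 6 hr became 0 in the authors' table, 0 with the Cy5 correction, 0 from Cy3 alone, 0 with the methods' error variance, 15 (8 higher, 7 lower) when scaled between arrays and 9 with a replicate block, and 0 to 2 without single arrays. The 9 at 12 hr became 18 when scaled and 0 with the methods' error variance, with 1 to 20 without single arrays and 5 higher and 6 lower from Cy3 alone. The 38 at 24 hr became 16 with the Cy5 correction, 24 from Cy3 alone and 0 with the methods' error variance, which called 0 of all rows on these arrays, with 19 to 51 without single arrays and 22 higher and 29 lower when scaled. The 26 on RA became 12 with the methods' error variance and 15 to 28 without single lines. Their split of 19 higher and 7 lower became 22 and 11 with the processed signals and in the authors' table. Without the episomal clone it was 13 higher and 10 lower. The 3 in LIF- became 5 from Cy3 alone (1 higher, 4 lower), 1 when scaled, 0 with the methods' error variance and 0 without the line as block (no replicate block), and 0 to 6 without single lines. The 39 differences between early and late arrays became 22 with the Cy5 correction, 21 from Cy3 alone and 30 to 51 without single arrays, with 27 higher and 28 lower when scaled. At 24 hr on the early arrays 2 named genes turned: Slc25a11 (-0.047 in the authors' table, -0.0018 from Cy3 alone) and Slc2a8 (-0.72, -0.49 with the Cy5 correction, -0.52 from Cy3 alone). The cause was not tested. The fall of Slc7a3 was called under each alternative at 120 hr (-5.05 to -3.76) and on RA (-3.51 to -2.87), and at 24 hr on the early arrays (-3.95 to -2.68) in 13 of 14. Whether replicate numbers pair the Tet arrays was not settled. In the late series the mean correlation of deviations from the group means was 0.15 for same-numbered arrays (-0.43 to 0.75). For differently numbered late arrays it was -0.07 (-0.64 to 0.50). In the early series the means were 0.11 and -0.11. With 2 arrays per time the early deviations mirror each other, so these means cannot decide it. With a replicate block 70 carriers were called at 120 hr, 13 at 12 hr (6 higher, 7 lower) and 40 at 24 hr of the early arrays. A fit with the scan date was not run, since the headers give only the day of image extraction.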
